A study of Mus musculus with 4 samples.

Results

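Pseudogene loci were examined in mature dendritic cells (maDC) that lacked or retained Mettl3, the catalytic subunit of the methyltransferase that writes N6-methyladenosine on mRNA. A locus was included where its deposited gene type contained the word pseudogene. This selected 1147 of the 23690 genes of the first table, 923 of them of the type pseudogene, 223 transcribed_pseudogene and 1 V_segment_pseudogene. The second table lists a gene where both of its libraries exceed 1 RPKM (reads scaled by gene length and library size), and 208 of the 1147 loci were in it. Of these 208, 199 averaged 1 RPKM or more across all 4 libraries and were tested, while 939 loci had values in the first table alone.

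The cells came from C57BL/6 bone marrow at 6 weeks of age, cultured with GM-CSF (10 ng/ml) and IL-4 (1 ng/ml), bound to anti-CD11c beads and exposed to LPS (100 ng/ml) for 24 h. Mettl3WT and Mettl3KO each comprised 2 libraries, sequenced as 2 littermate pairs, so each table holds 1 pair. In Mettl3KO mice the floxed Mettl3 allele is deleted by Cre driven from the CD11c promoter, and in the study's naming the Mettl3WT littermates are not described as carrying Cre, so an effect of Cre cannot be told apart from that of the deletion. Mettl3 itself was listed at 5.31 RPKM in Mettl3WT and 4.59 in Mettl3KO of pair 1, and at 5.10 and 4.39 in pair 2, in gene-level values that are not limited to the deleted exons. All values below are RPKM in the order Mettl3WT and Mettl3KO of pair 1, then Mettl3WT and Mettl3KO of pair 2.

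Pseudogenes are copies of genes that have lost the ability to make the parent's protein. A processed pseudogene arises when a spliced mRNA is reverse transcribed and inserted elsewhere, so it lacks introns and resembles the mature mRNA of its parent, whereas a duplicated pseudogene keeps the exon and intron layout. Highly transcribed housekeeping genes, above all those of ribosomal proteins, have left many processed copies in mammalian genomes. A sequencing read from a stretch that is the same in copy and parent cannot be assigned to either by its sequence alone, and a read across a splice junction of the parent matches an unspliced copy without a gap.

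The libraries held between 31240000 and 35580000 reads, as reconstructed from the RPKM steps of low values, and 10 reads in a model of 1 kb correspond to 0.281 to 0.320 RPKM. All 9 dendritic cell markers examined, CD11c (Itgax) among them, were listed in all 4 libraries. Their summed RPKM was 6119, 5132, 9387 and 5726, lower in Mettl3KO of both pairs. The sum is weighted towards the most abundant markers, such as Cd74 at 2276, 1845, 4612 and 2302 RPKM. Itgax itself was at 12.6, 9.66, 17.2 and 51.0, higher in Mettl3KO of pair 2. Flt3 was higher in Mettl3KO of pair 1, at 13.6 and 15.7. The remaining markers were lower in Mettl3KO of both pairs. Of 8 granulocyte markers, 7 were listed in pair 1 and 3 in pair 2, and their summed RPKM was 2188, 4829, 3031 and 149.6. The sum over 7 macrophage and monocyte markers was 936.1, 867.2, 2117 and 3408. The pair 1 libraries also differed in sex-linked transcripts, with Xist at 0.0502 and 37.8 RPKM and Ddx3y at 29.1 and 0.0243. An effect of sex can therefore not be told apart from that of genotype in pair 1. Of 5 sex-linked genes examined, 5 were listed in pair 1 and 0 in pair 2. Neither Xist nor a Y-linked gene among them thus exceeded 1 RPKM in both libraries of pair 2. Whether the libraries of pair 2 also differed in sex was not tested. In pair 2, too, an effect of sex can thus not be told apart from that of genotype. The part of these differences in the results below was not tested.

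Most of the loci lay near the limit of detection. The median level over the 1147 loci was 0.187 RPKM in Mettl3WT and 0.286 RPKM in Mettl3KO of pair 1, against 1.54 and 1.57 over all genes of the first table. Only 224 loci (19.5%) exceeded 1 RPKM in Mettl3WT and 243 (21.2%) in Mettl3KO, and 8 exceeded 100 RPKM in each. Together the loci took 0.803% and 0.782% of the summed RPKM of the pair 1 libraries. Values of 0 were unevenly placed, with 171 loci listed at 0 in Mettl3WT and 19 in Mettl3KO of pair 1. Of the former, 115 were of the type pseudogene and spanned under 2500 bases. For these 115 the Mettl3KO library held at least 6 reads and a median of 8, so most of these differences rested on few reads. The share of all genes listed at 0 in each library was not counted. The uneven placing can therefore not be called particular to pseudogenes.

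To see how closely the loci resemble expressed genes, the GENCODE transcript at each locus was aligned to the protein-coding transcripts. A transcript was found for 829 of the 1147 loci and 818 of them aligned. In 236 the copy was near-identical, here at least 99% identity over at least 80% of the model, and 45 were exact over the whole model. The model here is the GENCODE transcript, which can be shorter than the deposited locus. For Atp6v0c-ps2, 465 bases were aligned and the deposited locus spans 1133. For Hmgn2-ps1 the numbers were 279 and 1174. Near-identical and exact therefore do not describe the whole deposited locus. The windows below come from the coding part of the parent transcript and from the copy at the same place, and are shown for 6 copies that are described in the results below. Capitals mark the bases that differ between copy and parent.
Atp6v0c-ps2: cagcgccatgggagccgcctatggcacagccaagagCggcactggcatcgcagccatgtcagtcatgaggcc
Atp6v0c: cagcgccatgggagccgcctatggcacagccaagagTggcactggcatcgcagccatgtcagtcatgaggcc
Gm15459: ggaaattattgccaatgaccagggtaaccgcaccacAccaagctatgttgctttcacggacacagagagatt
Hspa8: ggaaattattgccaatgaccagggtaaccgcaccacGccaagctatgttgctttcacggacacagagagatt
Gm2423: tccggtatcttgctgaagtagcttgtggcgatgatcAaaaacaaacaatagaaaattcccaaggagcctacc
Ywhaq: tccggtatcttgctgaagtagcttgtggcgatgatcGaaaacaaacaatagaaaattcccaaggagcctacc
Rpl3-ps1: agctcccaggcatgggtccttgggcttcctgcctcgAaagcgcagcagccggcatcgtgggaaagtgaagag
Rpl3: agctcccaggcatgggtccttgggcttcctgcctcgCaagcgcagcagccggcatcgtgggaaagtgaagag
Gm9625: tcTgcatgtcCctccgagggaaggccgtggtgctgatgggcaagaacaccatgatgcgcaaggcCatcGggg
Rplp0: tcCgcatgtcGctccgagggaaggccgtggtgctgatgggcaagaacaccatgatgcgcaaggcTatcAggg
Hmgn2-ps1: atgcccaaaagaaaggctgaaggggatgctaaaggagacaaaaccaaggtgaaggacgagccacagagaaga
Hmgn2: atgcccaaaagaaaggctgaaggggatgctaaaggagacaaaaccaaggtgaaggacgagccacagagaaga

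Each window is 72 bases of GRCm38 (mm10), 5′ to 3′ on the transcribed strand. The copies lie at chr6:37806160-37806231 on the plus strand (Atp6v0c-ps2), chr5:5783407-5783478 on the minus strand (Gm15459), chr13:13232448-13232519 on the minus strand (Gm2423), chrX:13202592-13202663 on the plus strand (Rpl3-ps1), chr13:67810373-67810444 on the plus strand (Gm9625) and chr5:84123313-84123384 on the plus strand (Hmgn2-ps1). The first 4 copies differ from their parent by 1 base in the window, Gm9625 by 4 bases and Hmgn2-ps1 by 0. Windows were picked for the most differing bases, with an upper limit of 4. The counts are therefore the highest within that limit and not an average over the copy.

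The copy with the largest change was Atp6v0c-ps2, an unspliced copy of Atp6v0c on chromosome 6 (37805975 to 37807107, mm10). Atp6v0c encodes the membrane-embedded proteolipid subunit of the vacuolar proton pump (V-ATPase), which acidifies endosomes and lysosomes. Atp6v0c-ps2 was listed at 0.695, 76.1, 2.25 and 76.1 RPKM, so both Mettl3KO libraries were far above both Mettl3WT libraries. These values stand for about 28, 2923, 83 and 2693 reads. The RPKM was 110-fold higher in Mettl3KO of pair 1 and 33.9-fold higher in pair 2. On the log2(RPKM + 1) scale the locus rose by 5.04 (SE 0.26, limma with the pair as a block, Benjamini-Hochberg adjusted p = 5.97e-05, n = 2 pairs). It was the only tested pseudogene called by this test, 1 of 199 (0.503%), where 5 of all 11757 tested genes (0.0425%) were called. Without the pair as a block its adjusted p was 0.202 and 0 of 199 pseudogenes were called. The log2 ratios of Atp6v0c-ps2 in the pairs were 5.51 and 4.57. The SE of 0.26 draws 8.68 degrees of freedom from all tested genes and has 1 residual degree of its own. Ratios of pseudogenes spread more widely than those of all tested genes, as given below. The SE and adjusted p of pseudogenes may therefore be too small.

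The aligned GENCODE model of Atp6v0c-ps2 matched the parent transcript in 464 of 465 bases, with 354 in the longest identical run. The parent was listed at 188, 114, 295 and 124 RPKM, lower in the Mettl3KO library of both pairs, with a log2 change of -0.98 (SE 0.24, adjusted p = 0.298, limma). Relative to its parent, the copy stood at 0.370%, 66.6%, 0.761% and 61.1% of the parent RPKM. Levels were also weighted by transcript length, as RPKM times kilobases, to give RPM (reads scaled by library size alone). On this scale the copy and the parent together amounted to 223 and 221 RPM in pair 1, so that the sum in Mettl3KO was 99.3% of Mettl3WT. In pair 2 the sum was 352 and 233 RPM, or 66.4% of Mettl3WT. Whether reads from Atp6v0c transcripts were assigned to the copy was not tested. Across the 16 protein-coding V-ATPase genes tested, 0 were called, where 0.0425% of all tested genes were. Their medians were -0.03 and -0.05 on the log2 scale in pairs 1 and 2. In Mettl3KO of both pairs 4 were higher and 6 lower, where 19.1% and 30.8% of all tested genes were. Atp6v0c was the single V-ATPase gene at least 1.5-fold lower in both, where 0.476% of all tested genes were. The summed dendritic cell markers given above were lower in Mettl3KO of both pairs, and their part and that of the other marker sums in this change were not tested.

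**Figure D1:**
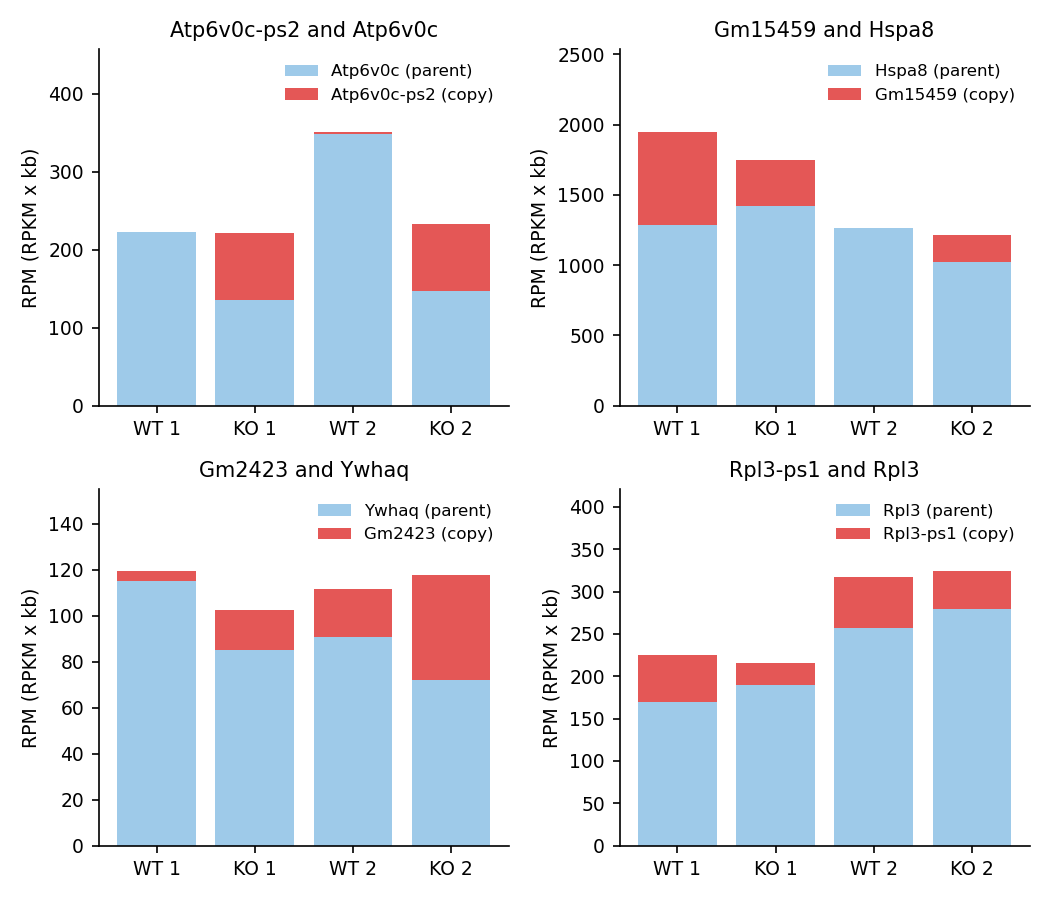
Length-weighted levels (RPM, RPKM times kilobases) of 4 near-identical copies (red) stacked on their parent genes (blue) in the Mettl3WT (WT) and Mettl3KO (KO) library of pairs 1 and 2. The copy is 0.353% of the Atp6v0c total in WT 1 and 38.9% in KO 1, and 34.0% of the Hspa8 total in WT 1 but 0.167% in WT 2.

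Besides Atp6v0c-ps2, 7 pseudogenes were at least 1.5-fold higher in Mettl3KO of both pairs on the (RPKM + 1) scale, which is a rule of size and not a test. With Atp6v0c-ps2 they make 8 of 199 (4.02%), where 0.731% of all tested genes passed the same rule. Gm2423 on chromosome 13 is a copy of Ywhaq, which encodes the 14-3-3 protein theta, and it matched 731 of 733 aligned bases. It was listed at 2.81, 11.7, 14.1 and 30.9 RPKM, higher within each pair, but Mettl3KO of pair 1 lay below Mettl3WT of pair 2, so the groups overlapped. The log2 change was 1.41 (SE 0.24, adjusted p = 0.155, limma). Ywhaq was at 54.6, 40.4, 43.0 and 34.2 RPKM, lower in Mettl3KO of both pairs. The length-weighted sum of copy and parent in Mettl3KO was 85.9% of Mettl3WT in pair 1 and 105% in pair 2.

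LOC102635048 on chromosome 11 was listed at 7.88, 19.5, 16.2 and 25.4 RPKM, and its log2 change was 0.91 (SE 0.24, adjusted p = 0.334, limma). No GENCODE transcript was matched to this locus. The other 5 were weakly expressed, from 0 to 9.78 RPKM, with log2 changes between 0.68 and 1.06 and adjusted p-values between 0.207 and 0.50 (limma). Gm7658, a copy of the translation initiation factor subunit gene Eif3m (1108 of 1125 bases), was at 0, 1.75, 2.84 and 5.07 RPKM. Gm12166, a copy of Sft2d1 (943 of 948 bases), was at 0, 0.869, 1.09 and 2.54 RPKM. In both, the Mettl3WT library of pair 1 was listed at 0 and the Mettl3WT library of pair 2 was above Mettl3KO of pair 1. Gm4045, a copy of the ATP synthase subunit gene Atp5l (303 of 310 bases), was at 1.83, 3.97, 2.68 and 5.74 RPKM. Gm7890, a copy of Hmgb1 (563 of 605 bases), was at 1.85, 3.28, 3.31 and 6.4 RPKM. Hmgb1 encodes a chromatin protein that also acts as an alarm signal outside the cell. Gm7338, with no matched transcript, was at 1.53, 3.17, 3.99 and 9.78 RPKM. Their parents had smaller changes: Eif3m had a log2 change of 0.01, Hmgb1 of 0.01, Atp5l of 0.27 and Sft2d1 of -0.15. Among these parents 0 were called, where 0.0425% of all tested genes were.

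In the other direction, 0 of 199 pseudogenes were at least 1.5-fold lower in Mettl3KO of both pairs, where 0.476% of all tested genes were. At an unadjusted p under 0.05 there were 43 pseudogenes by limma, of which 38 were higher, and 654 of all 11757 tested genes, of which 346 were higher. Among well expressed -ps copies, lower values were seen in Rpl3-ps1 on chromosome X, a copy of the large ribosomal subunit gene Rpl3 that matched 1208 of 1210 bases. It was listed at 41.9, 19.95, 45.3 and 33.3 RPKM, lower in both pairs and with no overlap between the groups. Its log2 change was -0.73 (SE 0.24, adjusted p = 0.598, limma), while Rpl3 was at 125, 141, 190 and 207 RPKM. The difference did not pass the test. The sum of copy and parent, weighted by length, was 96.2% of Mettl3WT in pair 1 and 102% in pair 2.

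Opposite changes of at least 1.5-fold in the pairs were seen for 3 of 199 pseudogenes (1.51%), where 0.774% of all tested genes showed them. The largest was Gm15459 on chromosome 5, an unspliced copy of Hspa8, which encodes the constitutive heat shock chaperone Hsc70. The copy matched 1936 of 1941 bases, with a longest identical run of 672. It was listed at 315, 154, 1.00 and 90.5 RPKM, so 1 Mettl3WT library was the highest and the other the lowest of the 4. These values stand for about 23628, 11016, 69 and 5956 reads. The log2 ratio of Mettl3KO to Mettl3WT was -1.03 in pair 1 and 5.51 in pair 2, and the log2 change over both was 2.24 (SE 1.07, adjusted p = 0.909, limma). Hspa8 was at 537, 595, 529 and 427 RPKM, without a called change. Gm12366, a copy of the small ribosomal subunit gene Rps2 (863 of 881 bases), was at 1.55, 3.07, 6.32 and 2.55 RPKM. LOC108169087, with no matched transcript, was at 2.76, 5.42, 8.56 and 4.14 RPKM.

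Some copies differed in pair 1 more than in pair 2, and 2 of them are named here after their values were seen. Eif4a-ps4, which matched the RNA helicase gene Eif4a1 in 1217 of 1218 bases, was at 9.77, 1.87, 1.5 and 2.02 RPKM, so a single Mettl3WT library stood above the other 3. Tmem181c-ps was at 0.660, 5.85, 4.73 and 3.54 RPKM, and here Mettl3WT of pair 1 alone stood below the other 3.

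**Figure D2:**
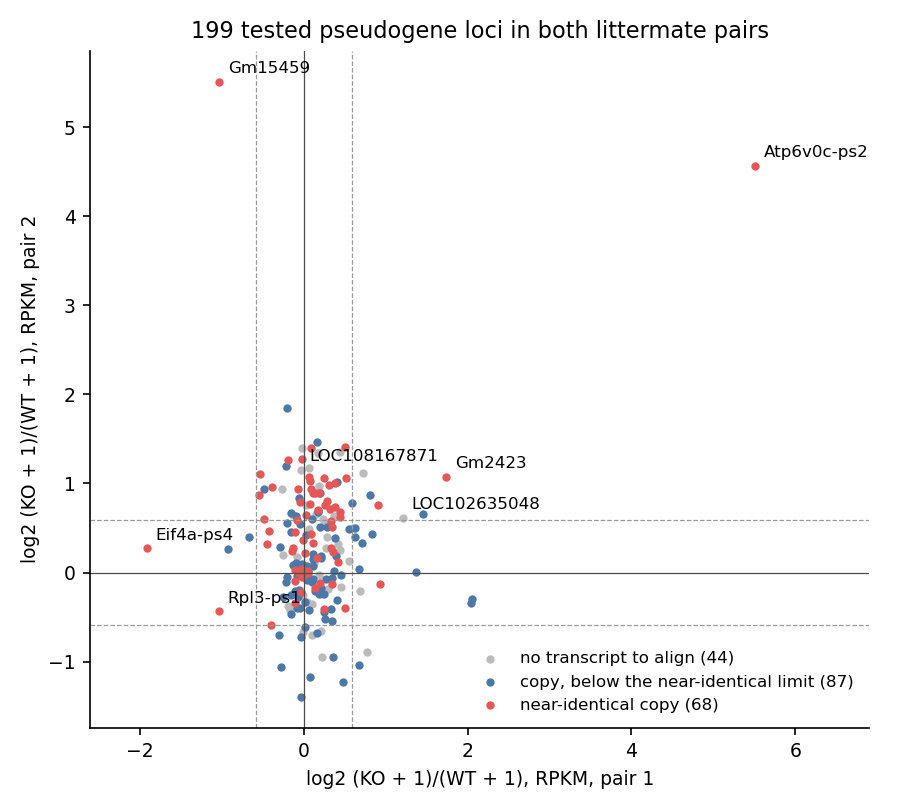
Log2 ratio of Mettl3KO to Mettl3WT, (RPKM + 1), of the 199 tested pseudogene loci in pair 1 (x axis) and pair 2 (y axis), coloured by likeness to a protein-coding transcript, with dashed lines at 1.5-fold. Atp6v0c-ps2 lies at 5.51 and 4.57, Gm15459 at -1.03 and 5.51, and the other loci within about 2 log2 units of 0 on both axes.

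The spread of the pseudogenes exceeded that of genes in general. The SD of the log2 ratios was 0.58 in pair 1 and 0.76 in pair 2 over the 199 tested pseudogenes, against 0.29 and 0.49 over the 11757 tested genes. In pair 1, 26 of 199 (13.1%) differed by at least 1.5-fold in either direction, where 4.43% of all tested genes did. In pair 2, 79 of 199 (39.7%) did, where 17.3% of all tested genes did. The median log2 ratio of the pseudogenes was 0.11 in pair 1 and 0.24 in pair 2, and the median log2 change was 0.18, against -0.02, -0.08 and -0.05 over all tested genes. In both pairs 85 pseudogenes (42.7%) were higher in Mettl3KO and 27 (13.6%) were lower, against 19.1% and 30.8% of all tested genes. These medians depend on single libraries: leaving out Mettl3KO of pair 2 gave a median log2 change of -0.03, and leaving out Mettl3KO of pair 1 gave 0.46. The part of the low level of most loci in the wide spread was not tested.

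Of the 10 loci with the highest mean level, 0 were called, where 0.0425% of all tested genes were. The 10 include Gm15459 above. Rn18s-rs5, which is related to the 18S ribosomal RNA gene, led the type pseudogene at 470, 467, 1464 and 1226 RPKM, higher in both libraries of pair 2 than in those of pair 1. LOC101056014 led the type transcribed_pseudogene at 180, 185, 643 and 511 RPKM. The models of both lie on chromosome 17 on opposite strands and overlap, so their reads could not be told apart where strand was not used in counting. Both followed the pair rather than the genotype. Mx1, an interferon-induced antiviral gene whose allele in C57BL/6 is defective, was at 333, 395, 138 and 117 RPKM, and its neighbour Mx2 at 22.5, 37.0, 5.84 and 4.92. Both were lower in both libraries of pair 2.

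Several others of the 10 were copies of abundant mRNAs. Gm12411, which matched the ribosomal protein gene Rpl21 in 479 of 483 bases, was at 136, 145, 405 and 546 RPKM. Rps3a2, a copy of Rps3a1 (788 of 792 bases), was at 90.6, 89.2, 203 and 210 RPKM, almost equal within each pair. Tpm3-rs7, a copy of the tropomyosin gene Tpm3 (2089 of 2108 bases), was at 98.3, 108, 182 and 161 RPKM. LOC102637129 was at 57.9, 69.4, 113 and 168 RPKM and LOC108167871 at 33.7, 32.9, 102 and 228, the latter with a log2 change of 0.56 (SE 0.29, adjusted p = 0.961, limma). The copies Gm12411, Rps3a2, Tpm3-rs7 and both LOC models were higher in each library of pair 2 than in each of pair 1. Pisd-ps1, described with its parent below, ran the other way.

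Parents were next set beside the copies whose symbol names them. Of 165 symbols ending in -ps or -ps and a number, 128 had a protein-coding row for the named parent and 47 were in both tables, 35 of them with the parent also in both. Alignment placed 119 of the 150 that aligned on the named parent. Of the 47 tested, 1 was called, and 0 of the 29 parents was, where 0.0425% of all tested genes were. Over the 35, the copy stood at a median of 0.762%, 0.885%, 0.669% and 0.897% of the parent RPKM in the 4 libraries, and 27 were under 10% in all 4. The log2 ratio had the same sign in copy and parent for 18 of 35 in pair 1 and for 20 of 35 in pair 2.

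**Figure D3:**
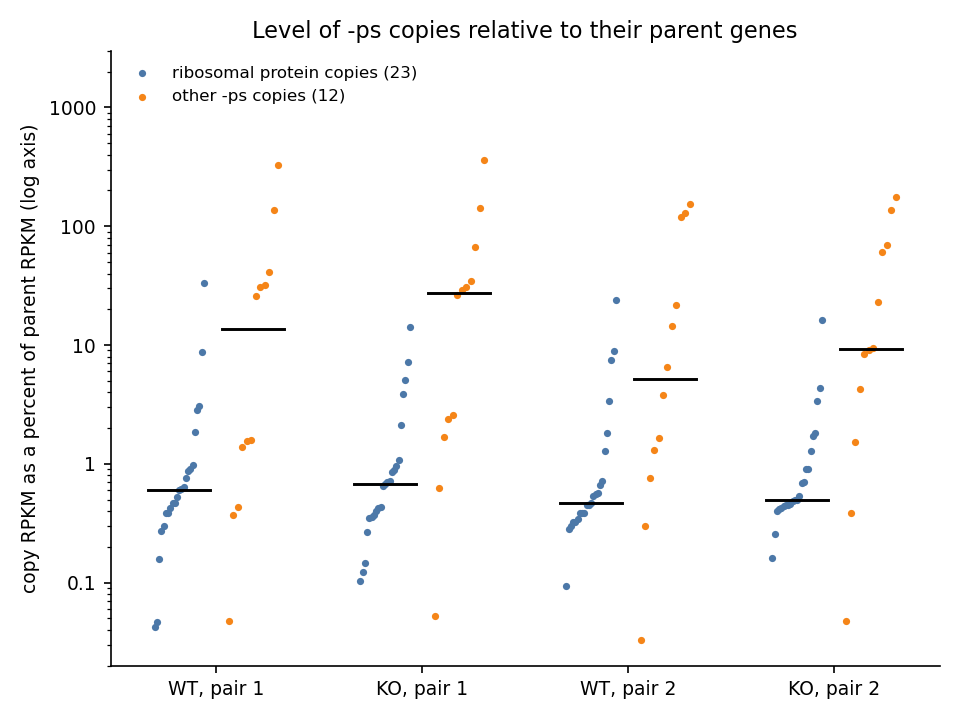
RPKM of 35 -ps copies as a percent of the RPKM of the parent gene (log axis) in each library, for 23 ribosomal protein copies (blue) and 12 others (orange), with black bars at the medians. The medians of the ribosomal protein copies lie between 0.471% and 0.678%, and those of the others between 5.17% and 27.7%.

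Ribosomal protein copies were the largest group, with 67 loci, of which 23 were in both tables. Over the 23, the median share of the parent RPKM was 0.608%, 0.678%, 0.471% and 0.496%, and 22 were under 10% in all 4 libraries. The exception was Rpl3-ps1 at 33.4%, 14.2%, 23.8% and 16.1%. The median log2 ratio of the copies was 0.11 in pair 1 and 0.47 in pair 2, and the parents' median was 0.03 and 0.38, so that both medians were higher in pair 2. In that pair 17 of 23 copies and 17 of 18 parents were higher, where 41.7% of all tested genes were. Within pair 2 the dendritic cell, granulocyte and monocyte marker sums also differed, from 9387 to 5726, from 3031 to 149.6 and from 2117 to 3408, and their part in this was not tested.

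Rps23-ps1, an exact copy of the small ribosomal subunit gene Rps23, was listed at 8.19, 7.08, 3.92 and 10.8 RPKM beside a parent at 909, 1014, 1213 and 2195. It stayed between 0.323% and 0.901% of the parent in all 4 libraries. Rpl38-ps2, also an exact copy, was at 1.42, 1.59, 3.01 and 9.52 RPKM beside Rpl38 at 234, 234, 424 and 736, and Rpl36a-ps2 at 1.13, 0.520, 1.62 and 2.98 beside Rpl36a at 217, 194, 305 and 562. Rps16-ps2, Rpl28-ps1, Rps13-ps2 and Rpl10a-ps1 were exact as well and stood between 0.147% and 2.13% of their parents. These exact copies all stood below Rpl3-ps1, which matched its parent in 1208 of 1210 bases. Copies of Rps15a formed a set of 3, with Rps15a-ps4 at 2.82% to 3.85% of the parent, Rps15a-ps5 at 1.73% to 8.84% and Rps15a-ps6 at 4.36% to 8.70%.

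Among the other -ps copies, several were close to or above their parent. Pisd-ps1 on chromosome 11 was at 117, 136, 43.9 and 49.4 RPKM, and Pisd, which encodes the mitochondrial phosphatidylserine decarboxylase, at 35.6, 37.5, 33.8 and 28.2. The copy was therefore at 330% and 364% of the parent in pair 1 and at 130% and 175% in pair 2. Its model aligned to Pisd in 1062 of 1128 bases (94.1%). Pisd-ps2 was at 11.1, 13.0, 2.21 and 2.65 RPKM and was likewise higher in both libraries of pair 1, with log2 ratios of 0.21 and 0.19 that hardly differed from those of Pisd-ps1 (0.21 and 0.17). Gpr137b-ps was at 23.4, 22.1, 28.2 and 27.4 RPKM beside Gpr137b, a lysosomal membrane protein gene, at 17.2, 15.5, 18.3 and 19.98. The copy kept to between 136% and 154% of the parent, with a log2 change of -0.06 (SE 0.22, adjusted p = 0.996, limma).

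Mrpl48-ps was at 3.69, 2.94, 10.2 and 8.29 RPKM and its parent, a mitochondrial ribosomal protein gene, at 8.87, 10.1, 8.49 and 11.8, so the copy was at 41.6%, 29.1%, 121% and 70.2% of it. In each pair the copy was lower and the parent higher in Mettl3KO. H3f3a-ps1, a copy of the histone H3.3 gene H3f3a (403 of 410 bases), was at 6.94, 7.07, 8.07 and 11.1 RPKM, between 1.3% and 1.69% of the parent. Ftl1-ps1 stood lowest against its parent, at 4.17, 4.25, 5.97 and 7.13 RPKM and under 0.0522% of the ferritin light chain gene Ftl1, which was at 8756, 8160, 18300 and 14883. Hmgb1-ps3, the other tested copy of Hmgb1 beside Gm7890, was at 1.38%, 2.57%, 3.81% and 9.06% of the parent, and its log2 change of 0.71 was not called (SE 0.21, adjusted p = 0.50, limma). Hmga2-ps1, at 2.55, 3.73, 7.19 and 9.20 RPKM, exceeded a parent that was barely detected, with Hmga2 at 0.0590 and 0.158 RPKM in pair 1. Bambi-ps1, at 1.71, 3.20, 1.84 and 2.74 RPKM, also exceeded Bambi, which was at 0.686 and 0.778 RPKM in pair 1.

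Some -ps symbols had no protein-coding row of that name. Tmem181b-ps was at 13.0, 16.8, 4.99 and 3.09 RPKM and was exact to Tmem181a over 454 aligned bases, which cover 18.7% of its model. Znf41-ps was at 4.35, 3.98, 10.7 and 9.98 RPKM, Ck-ps3 at 4.37, 5.61, 10.1 and 8.76, and Slfn10-ps at 8.12, 8.77, 3.36 and 5.59. Slfn10-ps aligned to Slfn8, a member of the interferon-responsive Schlafen family, at 92.2% identity. These 4 were separated by pair rather than by genotype, with log2 changes between -0.10 and 0.35. Among them 0 were called, where 0.0425% of all tested genes were.

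The 939 loci in the first table alone were compared in pair 1 only, 1 library against 1 library, so the differences have no replicate check and no p-value is given. Most were barely detected, and 850 were under 1 RPKM in both libraries. In all, 57 of 939 (6.07%) differed by at least 1.5-fold on the (RPKM + 1) scale, 40 of them higher and 17 lower in Mettl3KO, where 3.33% of all genes in the first table alone did.

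The largest differences were in copies of Rplp0, which encodes the P0 protein of the ribosomal stalk. Gm8730 was listed at 209.7 RPKM in Mettl3WT and 0.403 in Mettl3KO, about 8192 and 15 reads, with a log2 ratio of -7.23. It matched Rplp0 in 942 of 954 bases. Gm9625, at 930 of 955 bases, was at 41.2 and 0.214 RPKM, about 1611 and 8 reads. Together with Gm14165, the Rplp0 copies summed to 251 and 0.617 RPKM, while Rplp0 itself was at 574, 757, 973 and 861 RPKM. Gm8730 and Rplp0, weighted by length, summed to 1010 and 1028 RPM in pair 1. The copies were therefore nearly undetected in 1 library of the pair. The sum with Rplp0 in Mettl3KO was 102% of Mettl3WT for Gm8730 and 125% for Gm9625. All 3 copies together amounted to 276 and 0.678 RPM in pair 1, beside Rplp0 at 780 and 1028 RPM.

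Gm9825 and Hmgn2-ps1 differed in the other direction. Gm9825, a copy of Rnps1 (838 of 843 bases), which encodes a protein of the exon junction complex, was listed at 0 in Mettl3WT and at 13.8 RPKM, about 760 reads, in Mettl3KO. Rnps1 was at 19.4, 13.1, 16.6 and 9.05 RPKM. Hmgn2-ps1 was at 0.431 and 13.9 RPKM, or 0.575% and 26.7% of Hmgn2, a nucleosome-binding protein gene that was at 74.9, 52.2, 97.6 and 78.9 RPKM. Its aligned 279 bases were exact. For Hmgn2-ps1 the length-weighted sum with the parent in Mettl3KO was 93.8% of Mettl3WT, and for Gm9825 it was 131%. Both parents were lower in Mettl3KO of both pairs and were not called.

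Further differences were smaller. Gm12396, exact to Psenen over 306 bases, was at 9.19 RPKM in Mettl3WT and 0.60 in Mettl3KO, while Psenen, a gamma-secretase subunit gene, was at 25.8 and 43.9. Gm13443, a copy of the glyoxalase gene Glo1 (552 of 555 bases), was listed at 0 in Mettl3WT and 3.72 RPKM in Mettl3KO. Gm5801, a copy of the ubiquitin-conjugating enzyme gene Ube2j2 (774 of 780 bases), was listed at 0 and 3.45 RPKM. Gm4017 lies on chromosome Y and aligned to the initiation factor gene Eif1 at 94.1%. It was at 4.00 RPKM in Mettl3WT and listed at 0 in Mettl3KO, the same direction as the Y-linked gene Ddx3y given above.

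**Figure D4:**
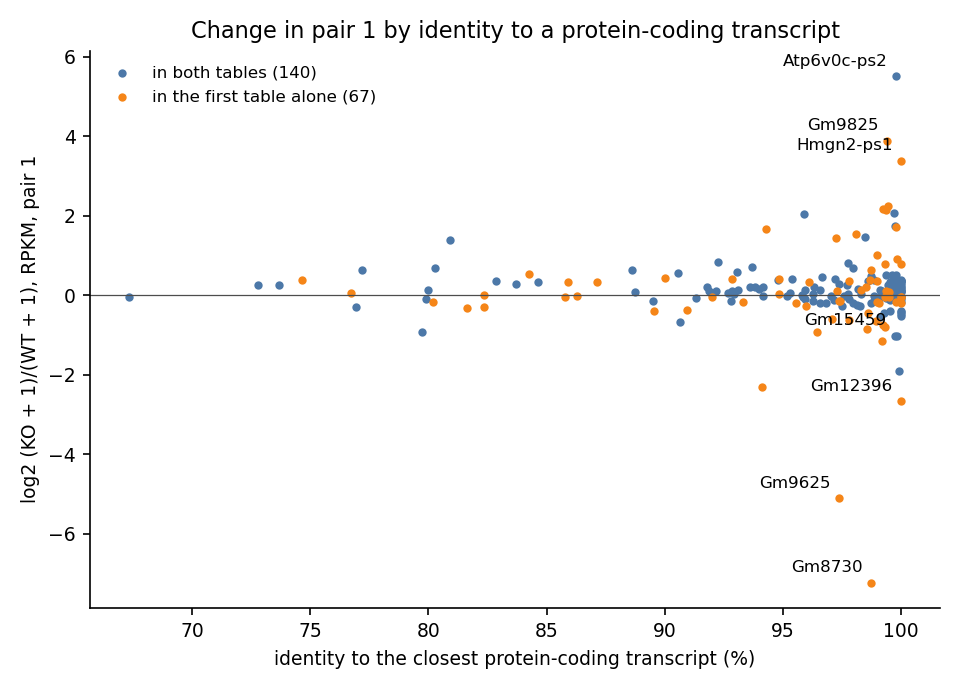
Log2 ratio of Mettl3KO to Mettl3WT, (RPKM + 1), in pair 1 (y axis) against the identity of the locus to its closest protein-coding transcript (x axis, percent), for the 207 aligned loci that reach 1 RPKM in a library of pair 1. Gm8730, Gm9625, Gm9825, Hmgn2-ps1 and Atp6v0c-ps2 are the 5 loci past 8-fold, and 3 of them are near-identical copies. Of the 207 loci plotted, 83 are near-identical.

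Over both tables, 270 loci reached 1 RPKM in a library of pair 1, and 83 of them were near-identical copies, 124 were aligned but below that limit, and 63 had no alignment. Of the 26 loci that differed by at least 2-fold, 13 were near-identical, and of the 5 past 8-fold, 3 were. The limit of 99% was chosen after the data were seen, and these counts were not tested.

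Of the -ps copies in the first table alone that had a parent row, those with the highest mean after Hmgn2-ps1 were near 1 RPKM. Cbx3-ps8 was at 2.78 and 2.14 RPKM, 29.6% and 23.4% of the heterochromatin protein gene Cbx3. Rpl9-ps7 was at 1.16 and 1.29, Hmgb1-ps4 at 1.47 and 0.642, Rps12-ps9 at 1.05 and 0.991, Rps26-ps1 at 1.16 and 0.879, Rpl10a-ps2 at 1.02 and 0.943, and Rpl14-ps1 at 1.38 and 0.510 RPKM. The ribosomal ones among them stood at between 0.103% and 0.668% of their parents. Trbv29, the only V segment pseudogene, was at 0.572 and 0.171 RPKM, about 10 and 3 reads.

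By name, the loci were mostly gene models, with 701 Gm symbols, 217 LOC models and 18 RIKEN clones beside the 165 -ps symbols. Of the 103 tested Gm loci, 6 were at least 1.5-fold higher in both pairs, 0 lower and 2 opposite, against 0.731%, 0.476% and 0.774% of all tested genes, with medians of 0.12 and 0.40 on the log2 scale in pairs 1 and 2. Of the 24 tested LOC models, 1 was higher and 1 opposite by the same rule, with medians of 0.17 and 0.21. The 2 MHC copies, H2-Q5 at 51.2, 55.7, 32.4 and 34.1 RPKM and H2-K2 at 27.1, 34.4, 40.8 and 30.4, were not called. The 12 tested loci on chromosome X had medians of -0.01 and 0.18. In both pairs 3 of the 12 were higher and 2 lower, where 19.1% and 30.8% of all tested genes were.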

How the data were processed

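RNA was measured in 2 Mettl3WT and 2 Mettl3KO libraries of maDC. Per the labels, the submitters' processing notes name bcl2fastq, TopHat2 2.0.14, Cuffnorm and the mouse genome mm10, and polyadenylated RNA was used. The authors deposited 1 table per littermate pair with an RPKM value per gene and library. The deposited log2 fold changes, p-values and q-values come from the authors' own comparison of the libraries of a pair and were not used. For the annotation, the library strand and the handling of reads with more than 1 match, the entry is: not given in the sources used here.

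Loci were taken by gene type and matched between tables by gene and position. Genes averaging 1 RPKM or more were tested on log2(RPKM + 1) with limma 3.58.1 (R 4.3.3), with the intensity trend, the pair as a block and Benjamini-Hochberg adjustment over 11757 genes, at a threshold of 0.05. Fold changes on this scale understate those of low genes. With 1 residual degree of freedom, the fit drew 8.68 from other genes. The pair rests on the methods of the study, which name littermate pairs. Same-numbered libraries deviated together (r = 0.697 over 11757 genes). Any difference between replicates 1 and 2 would give this too, so the r cannot show that the libraries are littermates. The 1.5-fold rule on (RPKM + 1) is not a test. The script was checked on simulated data.

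Library sizes came from loci of the gene types pseudogene and TEC that span under 2500 bases. These were taken as unspliced without a check of their exons. In them 96.9% to 98.9% of the low values were within 0.1 of a whole read. Counting error is all such read numbers cover. GENCODE vM21 pseudogene models were aligned to protein-coding transcripts with BLAST 2.17.0 (E-value 1e-10), and lengths of parents are those of the aligned transcript. The members, lists, parents by alignment and the near-identical limit were chosen with earlier results of these data known. Named loci are those past the limma threshold, past the 1.5-fold rule in both pairs, the 10 highest in mean, the 12 highest -ps loci in both tables, and, from the first table alone, the 8 largest differences and the 8 highest -ps loci with a parent row. Added to these were the highest of each gene type and the loci with opposite changes. Alternatives were no block, another pseudocount (0.1), minimum (none or 5 RPKM), centring, variance model or fold (2), leaving out each library, and leaving out near-identical copies, which was added after seeing the data.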

Additional observations from a re-analysis of the deposited data

How the results depend on the processing

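The test of pseudogenes depends on the pairing. With no replicate block 0 of them were called in place of 1, and the adjusted p of Atp6v0c-ps2 was 0.202 at the same log2 change of 5.04, which no other single choice brought past 0.05. The block changed no other call. Leaving out 1 library sets libraries of different pairs against each other without a block, and the lone library of a group is then assumed to vary like the others. It gave between 1 and 12 called pseudogenes (12 without Mettl3KO replicate 1, 2 without Mettl3WT replicate 1, 4 without Mettl3KO replicate 2), between 0 and 1 called parents of -ps copies and a median log2 change between -0.0322 and 0.46. Atp6v0c-ps2 stayed called in all 4, at 4.57 to 5.51. Without near-identical copies, chosen after seeing the data, 0 pseudogenes were called and 5 were 1.5-fold higher in both pairs in place of 8. That count was 21 at a pseudocount of 0.1, 3 at a minimum mean of 5 RPKM and 2 at 2-fold, and 0 were lower in both pairs under any of these. With pairs centred on the median ratio, the log2 change of Tpm3-rs7 turned to 0.0283 and that of Gpr137b to 0.0347. For Atp6v0c-ps2 alone Mettl3KO was 10959% of Mettl3WT in pair 1 and 3387% in pair 2. For the length-weighted sum with the parent it was 99.3% and 66.4%, and for the parent alone 60.8% and 42.2%. The copy was 0.353% and 0.724% of the Mettl3WT sums, so the fall from copy to sum follows from the weights. For Rpl3-ps1 the copy was at 47.6% and 73.6%, the sum at 96.2% and 102%, and the parent alone at 112% and 109%. A log2 change changed sign when 1 library was left out in these uncalled loci and parents, with the range over the 4 omissions given: Atp5l -0.30 to 0.85, Ck-ps3 -0.47 to 0.58, Eif3m -0.0668 to 0.0855, Gm12366 -0.95 to 0.57, Gm12411 -0.69 to 1.21, Gm15459 -1.41 to 5.89, Gpr137b -0.19 to 0.16, Gpr137b-ps -0.20 to 0.0907, H3f3a -0.33 to 0.47, H3f3a-ps1 -0.0711 to 0.52, Hmgb1 -0.10 to 0.12, Hspa8 -0.32 to 0.16, LOC101056014 -1.06 to 0.77, LOC102637129 -0.22 to 1.04, LOC108167871 -0.82 to 1.94, LOC108169087 -0.73 to 0.61, Mrpl48-ps -0.89 to 0.37, Mx1 -0.87 to 0.88. The same held for Pisd -0.29 to 0.11, Pisd-ps1 -0.53 to 0.91, Pisd-ps2 -0.77 to 1.16, Rn18s-rs5 -0.95 to 0.69, Rpl21 -0.0994 to 0.11, Rpl3 -0.16 to 0.44, Rps2 -0.72 to 0.0112, Rps23 -0.0508 to 1.06, Rps3a2 -0.60 to 0.62, Sft2d1 -0.38 to 0.0767, Slfn10-ps -0.18 to 0.88, Slfn8 -0.30 to 1.28, Tmem181a -0.38 to 0.0461, Tmem181b-ps -1.16 to 0.96, Tpm3 -0.55 to 0.69, Tpm3-rs7 -0.46 to 0.42, Znf41-ps -0.67 to 0.47. The causes were not tested. Values under about 0.3 RPKM in a 1 kb model rest on fewer than about 10 reads, and 1 pair carries no error.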
